A study of Mus musculus with 11 samples.

Results

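A set of 7 secretory genes of the salivary, lacrimal, gastric and airway glands were followed in mouse airway RNA: Lipf, Dmbt1, Pip, Bpifa2, Amy1, Lpo and Azgp1. They were taken as the rows of the expression table whose Ensembl identifier belongs to these 7 symbols, out of 21899 genes, and the list was selected on their FPKM levels in these libraries, among them the high levels of Lipf and Dmbt1 in the vehicle group. Their levels and group differences are therefore given as a description, with no test.

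The study asked what GGsTop, an inhibitor of gamma-glutamyl transferase, does in a model of asthma exacerbation. All mice were young adult wild type BALB/c males. PBS mice were not sensitised and received PBS only (3 libraries). OVA/LPS/Vehicle mice were sensitised with ovalbumin (OVA) in alum, challenged with intranasal OVA, then given intranasal lipopolysaccharide (LPS) and intratracheal vehicle (4 libraries, labelled 12, 34, 56 and 78). OVA/LPS/GGsTop mice received the same OVA and LPS with intratracheal GGsTop in place of vehicle (4 libraries), and tissue was taken a few days after the last dose in all groups. Whether a vehicle library holds 1 mouse or several was not stated in the sources used here, so p-values measure only the spread between these libraries. The labels name the tissue trachea, whereas the methods of the study describe bluntly dissected airway with the trachea removed. The fragment total used to scale each library was 14513136 to 18632382, as implied by the steps between its values. Levels are FPKM, fragments scaled for exon length and for library size.

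Gland cells make these proteins for secretion onto a wet surface. Serous acinar cells of salivary, lacrimal and airway submucosal glands release enzymes and bacteria-binding proteins, while chief cells of the stomach release digestive enzymes. Lipf encodes gastric lipase, an acid-stable fat-digesting enzyme, and Amy1 encodes the amylase of saliva. Dmbt1 encodes a scavenger receptor cysteine-rich (SRCR) protein that binds bacteria, and Lpo encodes lactoperoxidase, which makes an antibacterial oxidant from thiocyanate. Bpifa2 is the parotid secretory protein, Pip is the prolactin-induced protein of saliva and tears, and Azgp1 is zinc-alpha-2-glycoprotein.

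The sequences upstream of 4 gland genes are shown because Lipf and Dcpp2 were high in the same libraries, whereas Pip and Bpifa2 were listed at 0 throughout. Dcpp2 encodes a demilune cell and parotid protein, a salivary gland product. Each line gives the 250 bases before the RefSeq start on the gene's own strand (GRCm38.p6), and capitals mark TATAA, the core of the TATA box. The windows are chr19:33960998-33961247 for Lipf, chr17:23898472-23898721 for Dcpp2, chr6:41847299-41847548 for Pip and chr2:154008026-154008275 for Bpifa2, all on the plus strand. Starts differ between RefSeq and GENCODE, and the windows of Lipf, Pip and Bpifa2 reach 61, 14 and 11 bases into the gene as GENCODE places it.
Lipf: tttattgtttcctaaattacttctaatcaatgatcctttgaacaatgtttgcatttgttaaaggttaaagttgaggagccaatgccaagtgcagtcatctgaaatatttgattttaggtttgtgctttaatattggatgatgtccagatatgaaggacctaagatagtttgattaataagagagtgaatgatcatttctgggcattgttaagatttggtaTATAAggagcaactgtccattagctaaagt
Dcpp2: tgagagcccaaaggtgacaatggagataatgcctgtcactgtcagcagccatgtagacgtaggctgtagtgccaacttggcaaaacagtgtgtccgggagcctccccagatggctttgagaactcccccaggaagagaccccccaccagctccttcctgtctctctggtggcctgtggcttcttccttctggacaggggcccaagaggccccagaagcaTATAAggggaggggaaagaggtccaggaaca
Pip: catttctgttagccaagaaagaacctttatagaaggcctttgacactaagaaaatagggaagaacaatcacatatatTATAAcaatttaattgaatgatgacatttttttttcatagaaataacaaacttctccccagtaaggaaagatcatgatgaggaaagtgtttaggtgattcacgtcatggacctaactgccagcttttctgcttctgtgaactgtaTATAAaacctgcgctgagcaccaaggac
Bpifa2: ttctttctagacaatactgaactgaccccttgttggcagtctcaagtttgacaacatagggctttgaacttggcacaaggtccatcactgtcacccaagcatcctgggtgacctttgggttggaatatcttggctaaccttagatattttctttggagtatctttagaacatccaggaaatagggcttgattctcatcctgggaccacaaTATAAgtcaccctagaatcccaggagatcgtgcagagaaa
The first base of TATAA stood 30 bases before the RefSeq start in Lipf, 31 in Dcpp2 and 40 in Bpifa2. In Lipf it thus falls within the 61 bases that GENCODE places inside the gene. Pip held it at 28 and 173 bases. The motif was capitalised, and the panel of 5 motifs chosen, after these sequences had been read. Of the 7 members, 6 were in the RefSeq promoter table, with 7 promoters in all (2 for Amy1), and Dmbt1 had no entry. In windows of 250 bases before to 50 after the start, on either strand, TATAA was found in 4 of the 7 promoters and in 24.9% of all 32851 promoters. AACAAT was in 3 of the 7 (10.7% of all promoters) and TTCNNNGAA in 1 (8.3%). CAGCTG (16.3% of all promoters) and TGACTCA (5.2%) were in 0 of the 7. TATAA was thus present upstream of the RefSeq start in genes with high levels and in genes listed at 0.

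Lipf had the widest range of the 7 genes. It lies on chromosome 19 from 33961187 to 33976810 (plus strand, GRCm38, GENCODE M21). Its level was 2.45, 0.73 and 0.53 FPKM in PBS libraries 1, 2 and 3. In the OVA/LPS/Vehicle libraries it was 60.03 FPKM in library 12, 218.9 in library 34, 590.2 in library 56 and 0.25 in library 78. In the OVA/LPS/GGsTop libraries 1 to 4 it was 0.47, 0.83, 0.54 and 0.10 FPKM. High Lipf was thus seen in libraries 12, 34 and 56 of the vehicle group, while library 78 lay within the range of the GGsTop libraries and below every PBS library. In fragments, the vehicle libraries held 1313, 4883, 13276 and 6, against 14 to 52 in PBS and 2 to 17 in GGsTop, so the low levels rest on few reads. In bulk tissue, fewer cells of a type and less RNA per cell cannot be told apart.

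The mean Lipf level was 1.24 ± 1.05 FPKM in PBS (SD, n = 3), 217.4 ± 265.1 in OVA/LPS/Vehicle (SD, n = 4) and 0.48 ± 0.30 in OVA/LPS/GGsTop (SD, n = 4). On the log2(FPKM + 1) scale, which understates changes of low genes, vehicle minus PBS was 4.75 ± 1.98 (SE) and GGsTop minus vehicle was -5.27 ± 1.95 (SE). GGsTop minus PBS was -0.52 ± 0.40 (SE). The vehicle group overlapped both other groups because of library 78. Without library 78 the first difference was 6.58 and the second -7.09, and without library 56 they were 3.62 and -4.13.

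**Figure D1:**
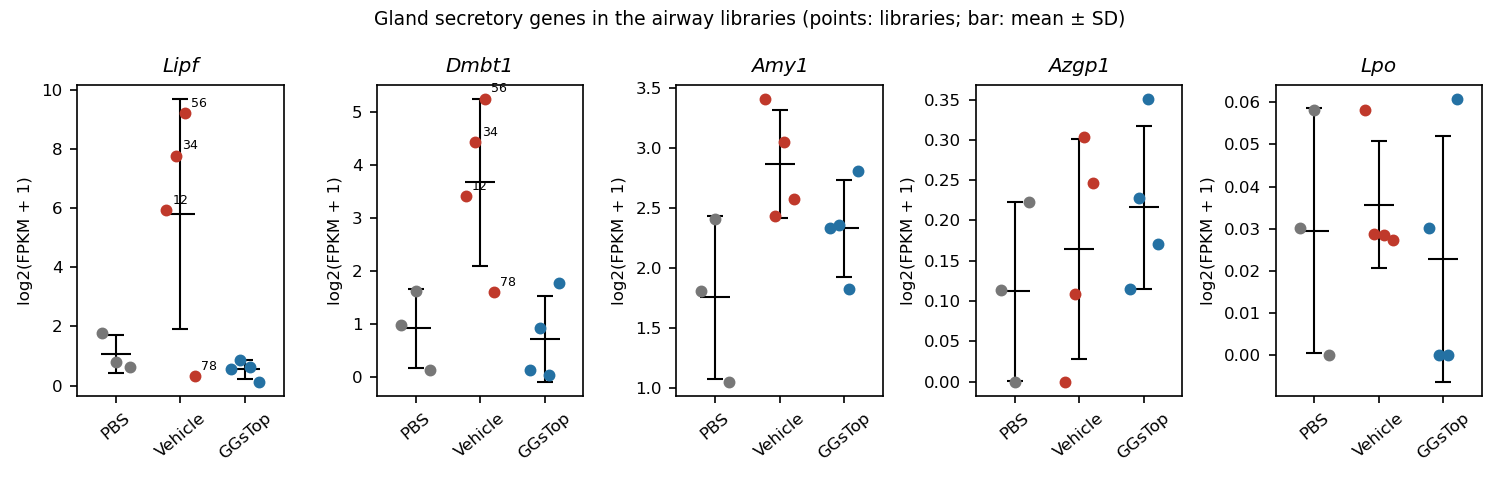
Level of 5 gland secretory genes on the log2(FPKM + 1) scale, with 1 point per library, the bar showing the mean and SD of the PBS (n = 3), vehicle (n = 4) and GGsTop (n = 4) groups, and a separate scale for each gene. Vehicle libraries 12, 34 and 56 stand above library 78 for Lipf and Dmbt1, whereas Azgp1 and Lpo stay under 0.28 FPKM in every library.

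Dmbt1 was high in the same libraries as Lipf, over a smaller range. This gene lies on chromosome 7 from 131032053 to 131121630 (plus strand). PBS libraries 1, 2 and 3 held 0.98, 2.10 and 0.10 FPKM. The vehicle libraries 12, 34, 56 and 78 held 9.56, 20.5, 36.8 and 2.05 FPKM. The GGsTop libraries 1 to 4 held 0.10, 0.89, 0.03 and 2.43 FPKM. Libraries 12, 34 and 56 again exceeded every PBS and GGsTop library, and library 78 lay inside the range of both groups.

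Mean Dmbt1 was 1.06 ± 0.999 FPKM in PBS (SD, n = 3), 17.2 ± 15.1 in vehicle (SD, n = 4) and 0.86 ± 1.11 in GGsTop (SD, n = 4). The log2 difference was 2.75 ± 0.89 (SE) for vehicle minus PBS, -2.95 ± 0.88 for GGsTop minus vehicle and -0.20 ± 0.59 for GGsTop minus PBS. Without library 78 the first pair became 3.44 and -3.64, and without library 56 it became 2.23 and -2.42. The sign of the GGsTop minus PBS difference turned when PBS 2 (0.16) or GGsTop 3 (0.03) was left out. The exon length that makes all 11 Dmbt1 values whole fragments was 7718 bases, against 7057 in the annotation used here. That length was inferred from the values, and it gives 264 to 4533 fragments in the vehicle libraries and 4 to 277 in the others.

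Lipf and Dmbt1 correlated at r = 0.93 over the 11 libraries (Pearson, log2 scale, given as a description). The coefficient rests on vehicle libraries 12, 34 and 56, and both genes were measured in the same libraries. Amy1 correlated with Dmbt1 at 0.68 and with Lipf at 0.51.

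Amy1, on chromosome 3 from 113555710 to 113606699 (minus strand), followed another order. Its level was 2.505, 4.31 and 1.07 FPKM in PBS, 9.64, 4.39, 7.26 and 4.95 in vehicle libraries 12, 34, 56 and 78, and 4.05, 4.14, 2.54 and 6.02 in GGsTop libraries 1 to 4. Every vehicle library exceeded every PBS library, as was the case for 18.7% of the 14004 genes tested, and the GGsTop libraries overlapped both groups. The log2 difference was 1.11 ± 0.45 (SE) for vehicle minus PBS, -0.53 ± 0.30 for GGsTop minus vehicle and 0.58 ± 0.44 for GGsTop minus PBS. In library 78, where Lipf and Dmbt1 were low, Amy1 was close to its level in library 34.

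Amy1 shares 1128 exonic bases with Rnpc3, a splicing factor gene on the same strand, in the GENCODE annotation, so reads in that stretch cannot be assigned to 1 of the genes. Rnpc3, named after its values were seen, ranged from 2.46 to 6.24 FPKM. The 5 pancreatic amylase genes in the table, Amy2a1 to Amy2a5, were listed at 0 in all 11 libraries. The Amy1 and Amy2a5 transcripts were 89.8% identical over 1588 aligned bases, and how reads shared between such copies were counted is not given in the sources used here.

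The other 4 genes were at or near 0. Pip (chromosome 6, 41847535 to 41852065) and Bpifa2 (chromosome 2, 154008265 to 154016079) were listed at 0 in all 11 libraries. Lpo (chromosome 11, 87806428 to 87828289) had 0 to 2 fragments per library and at most 0.043 FPKM. Azgp1 (chromosome 5, 137981520 to 137990233) had 0 to 7 fragments and at most 0.28 FPKM. Neither gene separated the groups. Only Lipf, Dmbt1 and Amy1 reached the mean of 0.5 FPKM needed for the fit across all genes. Among the members, high Lipf and Dmbt1 were thus not accompanied by the saliva and tear genes Pip, Bpifa2 and Azgp1 or by the peroxidase gene Lpo. The salivary genes Dcpp1 and Dcpp2, given below, were high in libraries where Lipf was high.

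The genes whose pattern was most like that of Lipf over the 11 libraries were Tg, Pth and Dcpp2 (Pearson r of 0.98, 0.97 and 0.97 on the log2 scale). Tg encodes thyroglobulin, the precursor of thyroid hormone, and Pth encodes parathyroid hormone. Tg was 90.6, 166.2 and 302.5 FPKM in vehicle libraries 12, 34 and 56, 0.26 in library 78 and 0.15 to 1.44 in the PBS and GGsTop libraries. Pth was 5.997, 91.8 and 223.5 FPKM in libraries 12, 34 and 56, was listed at 0 in library 78 and did not exceed 0.47 in PBS and GGsTop. Dcpp2 was 10.7, 23.9, 304.2 and 0.25 FPKM in the 4 vehicle libraries, at most 0.073 in PBS and listed at 0 in every GGsTop library. All 3 genes thus had their highest values in the libraries where Lipf was high, and in the same order.

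Dcpp1, chosen after its values were seen, was 3.66, 3.69 and 129.5 FPKM in vehicle libraries 12, 34 and 56 and was listed at 0 in the other 8 libraries. The Dcpp1 and Dcpp2 transcripts were 94.5% identical over 586 aligned bases, so counts for these paralogs are uncertain. Dcpp3, also a close copy, was listed at 0 throughout.

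**Figure D2:**
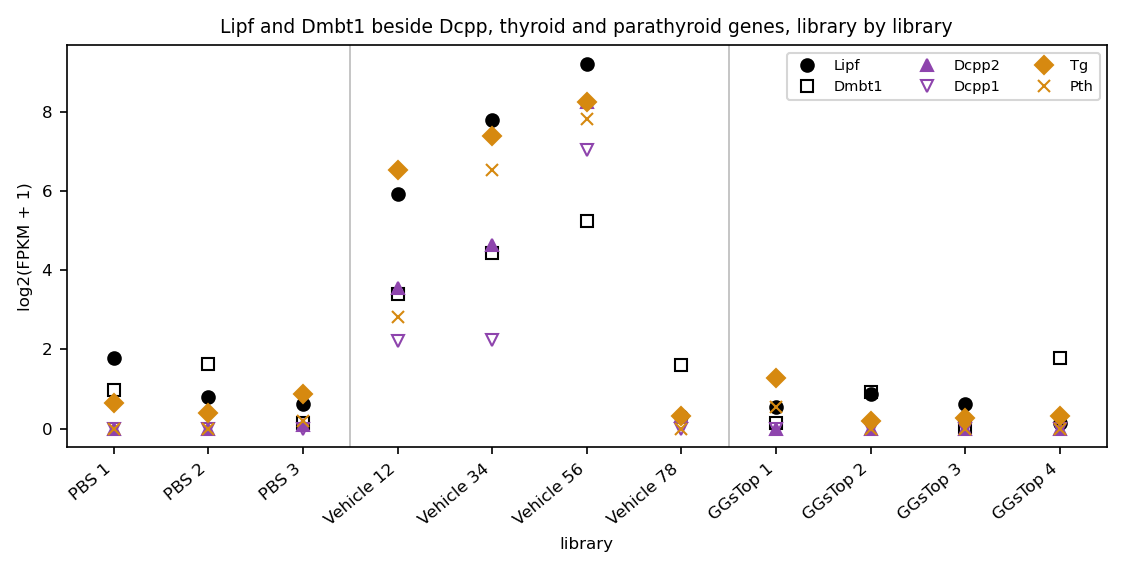
Level of Lipf, Dmbt1, Dcpp1, Dcpp2, Tg and Pth on the log2(FPKM + 1) scale in each of the 11 libraries, with vertical lines between the 3 groups. All 6 genes were highest in vehicle library 56, and Tg and Pth were 0.26 and 0 FPKM in library 78.

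Some genes of the thyroid and parathyroid were high in the same libraries as Lipf and Dmbt1. The summed level of 7 such genes (Tg, Pax8, Tshr, Iyd, Pth, Gcm2 and Calca) was 6.12 to 8.88 FPKM in PBS and 5.27 to 10.4 in GGsTop. In vehicle libraries 12, 34, 56 and 78 it was 106.5, 284.0, 603.3 and 7.13 FPKM. Pax8, a thyroid transcription factor, was 0.46, 0.58 and 0.98 FPKM in libraries 12, 34 and 56 and was listed at 0 in the other 8. Tg and Pth carried most of the sum, and the remaining members followed it less closely. Iyd, a thyroid deiodinase, was 5.80, 10.3, 15.3 and 4.50 FPKM in libraries 12, 34, 56 and 78 and 3.54 to 5.98 in PBS and GGsTop. Calca, the calcitonin gene, was 2.72, 14.4, 60.1 and 2.03 FPKM against 0.92 to 2.91. Tshr, the thyrotropin receptor gene, was 0.87, 0.55, 0.70 and 0.35 FPKM against 0.036 to 0.57, and Gcm2, a parathyroid factor, did not exceed 0.096 FPKM. In library 12, Iyd, Calca and Gcm2 thus lay within the range of the other groups. The part of this tissue in the Lipf and Dmbt1 levels was not tested.

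Gland markers were detected in part. Of 23 salivary and lacrimal genes, 10 were listed at 0 in all libraries, including Smr2, Smr3a and Cst10, and 10 passed the mean of 0.5 FPKM. All 13 submucosal gland and mucosal defence genes in the table passed it. Among 13 stomach genes in the table, Pga5, Gkn1, Gkn2, Tff1 and Gast were listed at 0, and the chief cell genes Pgc and Gif did not exceed 0.31 FPKM. The 10 pancreas acinar genes summed to between 0.90 and 2.10 FPKM. Defining airway genes were present in every library, with Scgb1a1, the club cell secretoglobin, at 26145 to 47905 FPKM, the ciliated cell factor Foxj1 at 21.2 to 157.2 and the smooth muscle actin Acta2 at 238.2 to 541.8. Tagln, another smooth muscle gene, was only 0.26 to 0.76 FPKM.

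Other tissue lists varied across the libraries in other orders. The 7 airway cartilage genes summed to 0.69, 1.14 and 0.63 FPKM in PBS 3, GGsTop 1 and GGsTop 3, to 75.1 in PBS 2 and 76.5 in GGsTop 4, and to 10.4 to 29.4 in the vehicle libraries. The 9 adipocyte genes summed to 45.4 to 473.9 FPKM in PBS, 366.9 to 1113 in vehicle and 32.9 to 516.0 in GGsTop. The 9 skeletal muscle genes gave 6.93 to 63.1, 42.6 to 145.3 and 19.4 to 83.9 FPKM in the same order of groups. The 8 oesophageal epithelial genes did not sum to more than 3.38 FPKM. Ciliated cell genes (6) summed to 102.1 to 164.8 in PBS, 293.2 to 381.0 in vehicle and 239.7 to 493.2 in GGsTop. Smooth muscle genes (6) summed to 594.3 to 781.8, 479.0 to 525.9 and 468.7 to 1148, club and goblet cell genes (8) to 31586 to 41938, 37122 to 56611 and 47164 to 52569, and neutrophil genes (8) to 107.9 to 351.2, 140.4 to 262.2 and 149.8 to 300.7. Among these sums, the thyroid and parathyroid sum was the one whose high libraries were vehicle 12, 34 and 56 alone. Single muscle genes shared that pattern. Myh4, Mylpf and Actn3 were higher in those libraries than in any other, whereas the other muscle genes of the list were not. Myh4 was 0.17, 1.63 and 0.84 FPKM in libraries 12, 34 and 56 and at most 0.018 elsewhere.

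**Figure D3:**
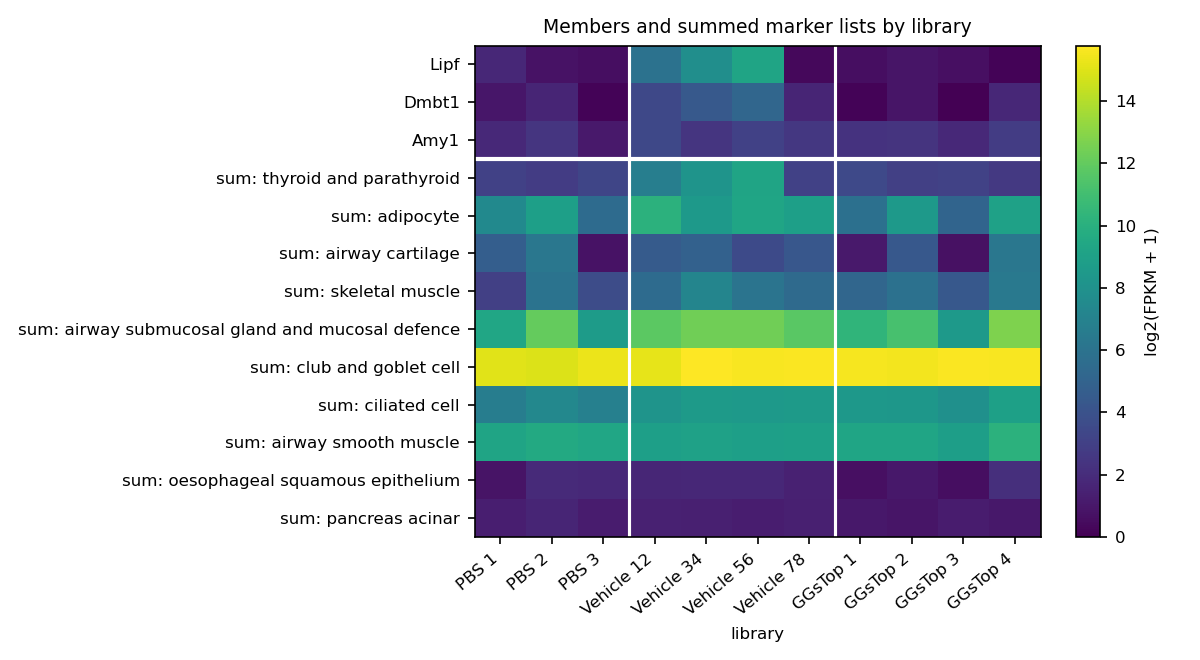
Lipf, Dmbt1 and Amy1 (top) and the summed FPKM of 10 marker lists (below) in each library, coloured by log2(FPKM + 1). The thyroid and parathyroid sum is 106.5 to 603.3 FPKM in vehicle libraries 12, 34 and 56 and 7.13 in library 78, while cartilage is lowest in PBS 3, GGsTop 1 and GGsTop 3.

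Dmbt1 was most like Mnd1, Gnat3 and Serpinb11 (r of 0.97, 0.96 and 0.95). Gnat3, the G protein subunit of taste and tuft cells, was 1.04, 1.16, 2.26 and 0.40 FPKM in vehicle libraries 12, 34, 56 and 78 and at most 0.66 elsewhere. Mnd1, a meiotic recombination factor, was 4.13, 3.76, 5.52 and 2.05 FPKM in those libraries and 1.01 to 2.16 in PBS and GGsTop. Serpinb11, a serpin, was 3.36, 6.37, 4.82 and 1.78 FPKM against at most 1.98. Each was higher in libraries 12, 34 and 56 than in any other library. The patterns most like Amy1 were Immt, Fam213a and Ndufs1 (r of 0.97, 0.97 and 0.96), of which Immt and Ndufs1 encode mitochondrial proteins. For Lpo they were Slc24a3, Dkk2 and Gatb (0.92, 0.90 and 0.89) and for Azgp1 Clec4b1, Pnp and Kti12 (0.83, 0.78 and 0.77), which rest on 0 to 7 fragments a library. The 10 genes most like the mean of the scaled members were Mnd1, Gnat3, Rdh14, C1qbp, Hacd2, Cldn8, Dhdh, Zik1, Bag4 and Pfdn1, with r from 0.92 to 0.95.

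Other genes of the same glands and protein families were put through the fit across all genes. Their lists were also written with earlier results of these data known. Their p-values, counts and medians therefore describe these libraries and are not an independent test. Of 97 such companion genes in the table, 47 passed the mean of 0.5 FPKM. The call needed an adjusted p below 0.05 (limma, Benjamini-Hochberg over 14004 genes, two-sided). In OVA/LPS/Vehicle against PBS, 21 of the 47 were called, 15 higher and 6 lower. Among all genes tested, 38% were called in this comparison, 15.9% higher and 22.1% lower. With libraries scaled to the same FPKM total, all calls split into 1232 higher and 4570 lower, against 2231 and 3096. The companions had a median log2 difference of 0.42, against -0.01 for all genes.

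Most genes of the submucosal gland and mucosal defence list were higher in vehicle than in PBS. Of the 13 genes, 8 were called higher and 0 lower, with a median log2 difference of 2.62. Among all genes tested, 15.9% were called higher and 22.1% lower. Lcn2, Sox9, Sox10 and Sftpd were not called (limma adjusted p = 0.057, 0.075, 0.21 and 0.29), and the Sftpd difference was -0.37. Which cells held these transcripts was not tested. Tff2, a trefoil peptide of mucus, was 0.46, 11.5 and 1.56 FPKM in PBS and 71.4, 151.0, 245.9 and 181.8 in vehicle libraries 12, 34, 56 and 78 (log2 difference 5.37 ± 0.92 SE, limma adjusted p = 0.0039). Slpi, a secreted protease inhibitor, rose by 1.87 ± 0.42 (limma adjusted p = 0.0084). Bpifb1, a BPI-fold protein of airway mucus, rose by 4.65 ± 1.08 (limma adjusted p = 0.0094). Bpifa1, the most abundant gene of the list, was 42.0 to 3518 FPKM in PBS and 1714 to 3717 in vehicle and was not called (limma adjusted p = 0.18). The summed list was 403.8 and 643.6 FPKM in PBS 3 and PBS 1 and 4272 in PBS 2, the order of the cartilage sum in these libraries, and the part of tissue makeup in these differences was not tested. Library 78, low in Lipf and Dmbt1, was not low in Tff2 or Bpifb1. Of the vehicle libraries it was the lowest in Bpifa1, Ltf and the summed list (3383 FPKM). It was the highest in Slpi, Muc5b and Pigr.

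Among 10 salivary and lacrimal genes in the fit, 4 were called higher and 2 lower in vehicle against PBS (median 0.94). The shares over all genes tested were 15.9% higher and 22.1% lower. Which cells held these salivary and lacrimal list transcripts was not tested. Spdef, a transcription factor of secretory cells, was higher by 1.46 ± 0.31 (limma adjusted p = 0.0066). Agr2, a folding factor of mucin-producing cells, was higher by 2.98 ± 0.81 (limma adjusted p = 0.017), a call lost without PBS 1 or PBS 3. Dcpp2 was higher by 4.15 ± 1.29 (limma adjusted p = 0.027), which was lost without PBS 1, PBS 3 or vehicle 34, and its vehicle libraries ranged over 0.25 to 304.2 FPKM. Dcpp2 passed the filter of 0.5 FPKM only through vehicle libraries 12, 34 and 56, where Lipf was high. Its p-value is therefore not independent of the pattern on which the members were chosen. The water channel gene Aqp5 fell by 1.32 on the log2 scale (SE 0.23, limma adjusted p = 0.0041). The lysozyme gene Lyz1 fell by 0.98 (SE 0.35, limma adjusted p = 0.047), and that call was lost without PBS 3 and when any of the 4 vehicle libraries was left out.

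Of 4 stomach genes in the fit (median 0.74), 2 were called higher and 0 lower, where 15.9% and 22.1% of all genes were. Chia1, an acid chitinase, was higher by 1.25 ± 0.24 (limma adjusted p = 0.0051). The mucin gene Muc5ac was higher by 2.75 ± 0.60 (limma adjusted p = 0.0077). Muc5ac was also in the club and goblet cell list, and it did not exceed 0.42 FPKM in PBS. It passed the filter only through the OVA/LPS groups, so its p-value is not independent support. The stomach genes Pga5, Gkn1, Gkn2, Tff1 and Gast were listed at 0. In the lactoperoxidase system, Slc26a4, an anion exchanger that can carry thiocyanate, was higher by 2.06 ± 0.46 (limma adjusted p = 0.0082) and was the only 1 of 3 genes called (median 1.22). That median was the value of Slc5a5 (limma adjusted p = 0.068). Slc5a5 had 20, 190, 232 and 9 fragments in vehicle libraries 12, 34, 56 and 78, against 2 to 17 in PBS and GGsTop. Its high values were in libraries 34 and 56, where Lipf and the thyroid and parathyroid genes Tg and Pth were also high. The oxidase genes Duox1 and Duox2, which supply hydrogen peroxide to Lpo, did not exceed 0.49 FPKM.

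The protein families of the members are given by their counts, beside the 38% of all genes called in this comparison. Of 11 SRCR genes, the family of Dmbt1, 0 were called higher and 2 lower (median -0.03). Ssc5d fell by 0.67 (SE 0.13, limma adjusted p = 0.0052) and Cd163l1 fell by 0.78 (SE 0.15, limma adjusted p = 0.005). Scara5, the most abundant SRCR gene, was 5.25 ± 3.45 FPKM in PBS (SD, n = 3) and 4.84 ± 1.45 in vehicle (SD, n = 4). Of 8 acid lipase genes, the family of Lipf, 2 passed the filter and 0 were called. The lysosomal lipase gene Lipa was 12.7 ± 0.55 FPKM in PBS (SD, n = 3), 12.5 ± 2.56 in vehicle (SD, n = 4) and 12.2 ± 2.25 in GGsTop (SD, n = 4). Of 5 BPI-fold genes, the family of Bpifa2, Bpifb1 was called higher and the lipid transfer gene Pltp lower (fell by 0.57, SE 0.15, limma adjusted p = 0.014). Of the haem peroxidase genes, the family of Lpo, the matrix peroxidase gene Pxdn fell by 0.93 (SE 0.17, limma adjusted p = 0.0044). The calls of Ssc5d, Cd163l1 and Pltp were lost after correction for GC content (limma adjusted p = 0.11, 0.096 and 0.23), as were those of Lyz1 (0.066), Oit1 (0.054) and Reg3g (0.088). The split of the companion calls was then 16 higher and 2 lower, Aqp5 and Pxdn.

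**Figure D4:**
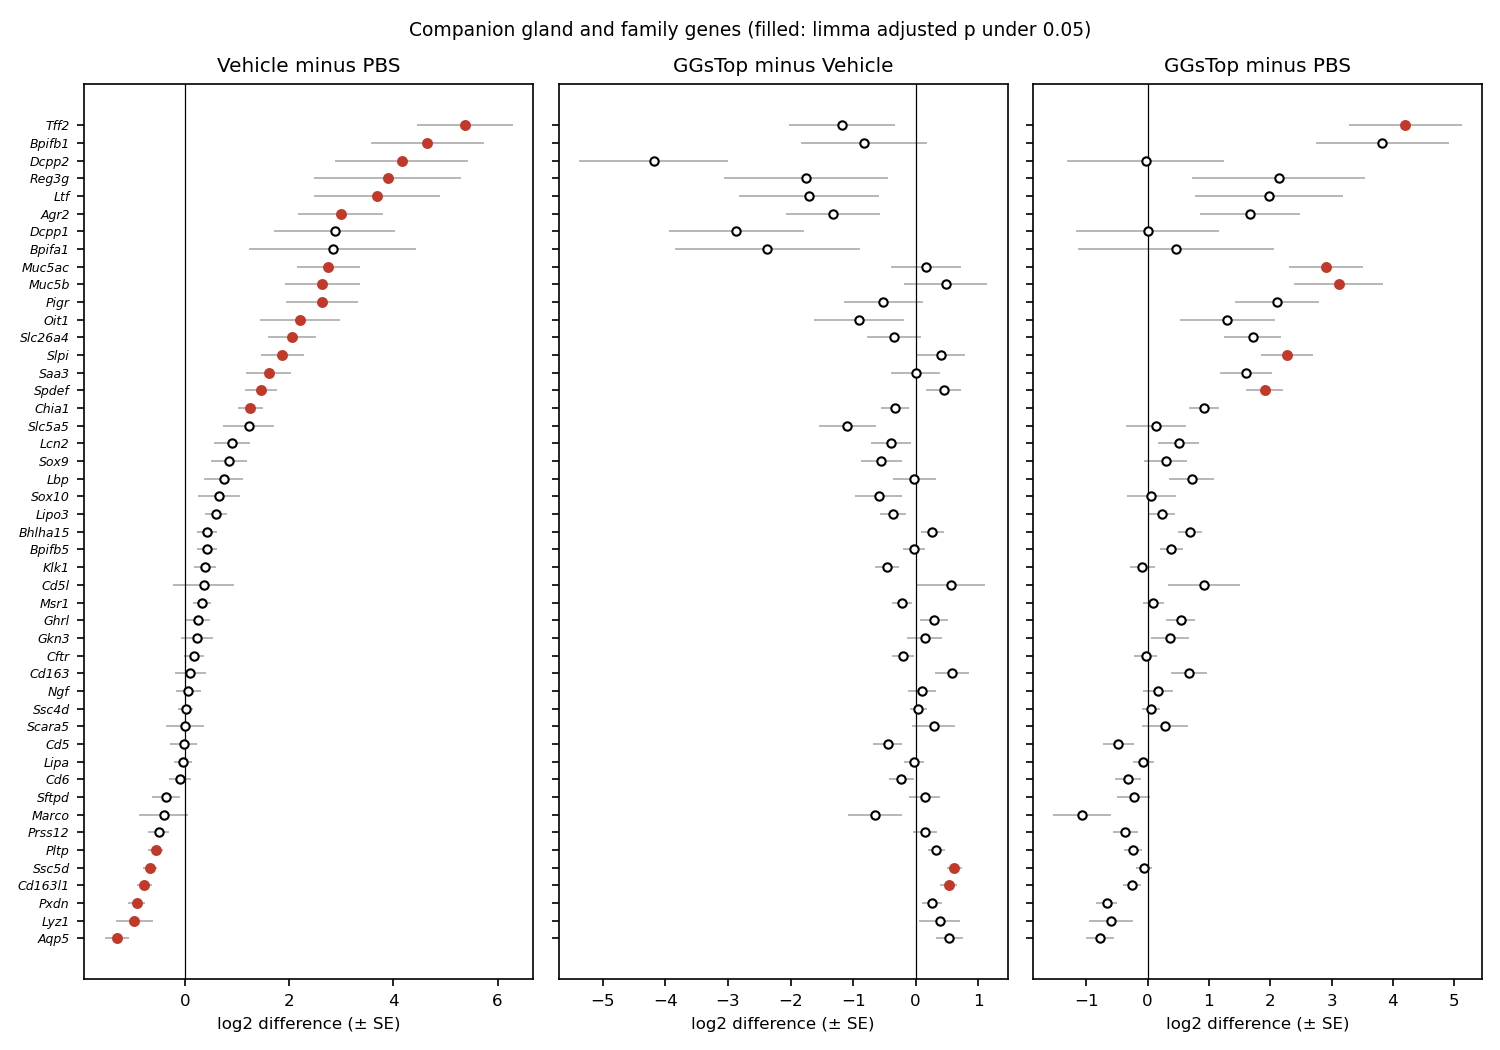
Log2 difference (± SE) of the 47 companion genes in the fit, in vehicle minus PBS, GGsTop minus vehicle and GGsTop minus PBS, with filled points for a limma adjusted p under 0.05. There are 21, 2 and 5 filled points in the 3 panels.

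In OVA/LPS/GGsTop against OVA/LPS/Vehicle, 2 of the 47 companion genes were called, both higher, where 8.71% of all genes were called (6.9% higher and 1.81% lower). Ssc5d was 2.46, 2.40, 2.02 and 2.59 FPKM in vehicle libraries 12, 34, 56 and 78 and 4.66, 3.36, 4.75 and 3.96 in GGsTop libraries 1 to 4 (log2 difference 0.62 ± 0.12 SE, limma adjusted p = 0.02). Cd163l1 was 0.40 to 0.55 FPKM in vehicle and 0.75 to 1.65 in GGsTop (0.53 ± 0.14 SE, limma adjusted p = 0.041). Both calls were lost after correction for GC content, and each was lost without vehicle 34 or 56 or GGsTop 1 or 3. The Cd163l1 call was also lost without vehicle 12 or 78 or GGsTop 2. The split of all calls, 966 higher and 254 lower, became 2026 and 155 when libraries were scaled to the same total and 344 and 354 when scaled to the same median. The companion median was -0.03, against 0.03 for all genes. The SRCR list had a median of 0.15, the submucosal gland list -0.55, the salivary list -0.18, the stomach list 0.15, the lactoperoxidase list -0.35, the acid lipases -0.19 and the BPI-fold genes -0.03, and Pxdn differed by 0.27. Tff2, Bpifb1, Slpi, Muc5ac and Muc5b, which exceeded PBS in the vehicle libraries, were not called in this comparison (limma adjusted p from 0.36 to 0.87). Dcpp2 fell short of the threshold (log2 difference -4.19, limma adjusted p = 0.051) and passed it, lower in GGsTop, with 0.1 as the pseudocount (0.025), a stricter filter of 1 FPKM (0.049), libraries scaled to the same total (0.036) or without vehicle 78 (limma adjusted p = 0.024). Over its other alternatives the limma adjusted p of Dcpp2 was 0.052 to 0.12. Dcpp2 entered the fit only through the vehicle libraries where Lipf was high, so none of these p-values is independent support. The lipase gene Lipo3 was called lower when the 2 groups were fitted alone (limma adjusted p = 0.034), and library weights gave 6 companions higher and 4 lower.

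In OVA/LPS/GGsTop against PBS, 5 of the 47 were called, all higher: Slpi, Tff2, Spdef, Muc5ac and Muc5b. Muc5ac, at most 0.42 FPKM in PBS, passed the filter only through the OVA/LPS groups, so its p-value is not independent support. Over all genes 2.88% were called, 2.06% higher and 0.821% lower, and scaling to the same total changed the split from 288 and 115 to 250 and 243. The log2 difference was 4.20 ± 0.92 (SE) for Tff2, 2.27 ± 0.42 for Slpi, 1.91 ± 0.31 for Spdef, 2.91 ± 0.60 for Muc5ac and 3.11 ± 0.72 for the mucin gene Muc5b, with limma adjusted p from 0.014 to 0.045. With the replicate number as a block in PBS and GGsTop libraries 1 to 3, a pairing that the sources do not state, 2 of these companions were called, Slpi and Spdef. Without PBS 1, PBS 3 or GGsTop 1 none was (limma, 14, 13 and 14 at an unadjusted p under 0.05). Each group enters 2 of the 3 comparisons, so their differences are not independent.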

How the data were processed

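RNA from 11 mouse airway libraries was sequenced after poly-A selection. Per the labels, reads were trimmed with cutadapt 1.15, aligned with HISAT2 2.0.5 to mm39 and counted with HTSeq 0.9.1. The deposited values are FPKM per Ensembl gene, computed by the authors, and no counts were used here. Multiplied by the GENCODE M21 exon length, 97.7% of 18228 genes above 0 gave whole fragments in each library (tolerance 0.05). The steps set the scaling total of 14513136 to 18632382 fragments a library. Whether that total held all mapped fragments or only those assigned to genes was not checked. The study tested counts with DESeq, but FPKM are not counts, so limma 3.58.1 (R 4.3.3, eBayes with trend) was run on log2(FPKM + 1) for 14004 genes (mean over libraries 0.5 FPKM or more), in 1 fit over 3 groups, with Benjamini-Hochberg adjustment.

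Members and companion lists were chosen with earlier results of these data known. Members therefore carry no test, and the p-values and counts of companions are descriptive. Named companions were the genes called (up to 3 per list and direction by p) and the most abundant gene of each list, and likeness was ranked by Pearson r. Genes outside these rules (Dcpp1, Dcpp3, Pax8, Iyd, Calca, Tshr, Gcm2, Slc5a5, Lcn2, Sox9, Sox10, Sftpd, Myh4, Mylpf, Actn3, Lipo3, Oit1, Reg3g, Rnpc3, Duox1, Duox2, Pgc, Gif and the airway markers with values) were named after their values were seen. Gene positions are GRCm38, not the build of the alignment. A gene of the lists is not reported here and was left out of them. The fit was tested on simulated data. Alternatives were the pseudocount, filter, scaling, variance trend, library weights, groups fitted, GC content, replicate block and leaving out each library. GC correction was run in 2 forms, one added after the counts of the other had been seen. PBS and GGsTop libraries of the same number deviated together (r of 0.37, 0.43 and 0.43 for numbers 1, 2 and 3, limit 0.1), and the number was also fitted as a block. However, PBS 1 correlated more with GGsTop 3 (0.46) and PBS 2 more with GGsTop 4 (0.64). No pairing is stated in the sources used here, so these correlations do not establish that equal numbers are pairs.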

Additional observations from a re-analysis of the deposited data

Results flagged for a closer look

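Within groups of 4 libraries, 48 sets of values were examined and 3 held a library far from the others, where chance gives about 1 in 20. Lpo in vehicle library 12 was 0.041 FPKM against 0.020 in the next library, a gap of 0.950 of the group's range that is the difference between 2 fragments and 1. Cd163l1 in vehicle library 56 was 0.55 FPKM against 0.42 (0.879 of the range). Scara5 in GGsTop library 4 was 11.8 FPKM against 5.16 (0.840 of the range). Lipf and Dmbt1 in vehicle library 78 did not pass this limit, because the other 3 vehicle libraries also lie far apart.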

How the results depend on the processing

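Of 185 recomputed member differences (15 differences), 172 moved by less than the spread within groups and 13 by more, and 11 turned sign. The spread was wide for Lipf (SD 3.04 on the log2 scale in vehicle minus PBS), so large shifts of Lipf also counted as less. Those that turned were near 0 (Lpo, Azgp1 and the GGsTop minus PBS difference of Dmbt1), and Lipf, Dmbt1 and Amy1 kept their direction in vehicle minus PBS and GGsTop minus vehicle under every alternative run. The members were chosen on their levels in these libraries, so a kept direction is no support for these differences.

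For vehicle against PBS, 5327 genes were called. GC correction gave 2910, or 3007 when each library kept its mean, and library weights moved the companions from 21 to 32. Leaving out 1 library gave 3064 to 6440 genes and 13 to 29 companions, with both minima without PBS 3.

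For GGsTop against vehicle, 1220 genes were called. Scaling to the same total gave 2181 and to the same median 698 (1 companion), fitting the 2 groups alone 3525, and library weights 5214 (10 companions). The planned GC correction gave 56 genes and 0 companions (limma, 8 at an unadjusted p under 0.05). A form that kept each library's mean was added after that count had been seen and gave 311 genes and 0 companions (7 at an unadjusted p under 0.05), so the number of calls depends on how GC content is treated. Leaving out 1 library gave 24 to 1052 genes and 0 to 2 companions. The count was 739 without vehicle 12, 62 without 34, 35 without 56, 235 without 78, 24 without GGsTop 1, 361 without 2 and 103 without 3. Companions were 0 without vehicle 34 or 56 or GGsTop 1 or 3 (limma, 5 to 9 at an unadjusted p under 0.05), and 1 without vehicle 12 or GGsTop 2.

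For GGsTop against PBS, 403 genes and 5 companions were called. No filter gave 208 and 2, the 2 groups alone 39 and 1, and library weights 2557 and 19. GC correction gave 594 genes, or 609 with library means kept. The replicate block gave 62 genes and 2 companions. The block with GC correction, added after the data were seen, gave 398 genes and 7 companions, or 417 and 6 with library means kept. Leaving out 1 library gave 29 to 1597 genes and 0 to 11 companions. The gene count was 29 without PBS 1, 1597 without PBS 2, 56 without PBS 3, 36 without GGsTop 1, 143 without 2, 777 without 3 and 200 without 4. The corresponding companion counts were 0, 11, 0, 0, 1, 11 and 3. The cause of these shifts was not tested. Lpo and Azgp1, with 0 to 7 fragments a library, were too shallow for a difference between groups to be seen.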
